A study of Homo sapiens with 6 samples.

Results

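The calcineurin and NFAT genes were examined in A375 cells, an established human melanoma line, after sorting on aldehyde dehydrogenase (ALDH) activity. The 10 genes were taken by name from the 57914 genes of the deposited tables: the transcription factors NFATC1, NFATC2, NFATC3, NFATC4 and NFAT5, the calcineurin subunits PPP3CA, PPP3CB and PPP3R1, and the calcineurin regulators RCAN1 and RCAN2. Each name matched 1 row. NFATC2 was chosen by its high log2 fold change between the sorted groups, so that difference is described and not tested. The other 9 genes were included for their place in the pathway, with earlier results of these data known.

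Both groups came from A375 cells grown in high-glucose medium with serum, with no other treatment named, and stained with Aldefluor, a substrate that becomes fluorescent and stays in the cell after ALDH enzymes act on it. ALDH_High (here High) held the 5% of cells with the strongest signal and ALDH_Low (here Low) the 5% with the weakest, with 3 libraries in each group. The line is a single cancer line, and the labels do not say whether the 3 libraries of a group came from separate cultures, so p-values measure the spread between these libraries. Messenger RNA was sequenced from stranded libraries.

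Calcineurin is a calcium-activated protein phosphatase. A rise in cytosolic calcium binds calmodulin, which turns on the enzyme. The active enzyme removes phosphates from NFATC1 to NFATC4, which then enter the nucleus and bind DNA, often beside AP-1 factors, until kinases put the phosphates back and the factors are exported. NFAT5, the remaining family member, answers to osmotic stress and does not depend on calcineurin. RCAN1 binds and restrains calcineurin, and 1 of its promoters is a classic NFAT target, so that RCAN1 transcript is widely used as a readout of the pathway. NFATC2 was first studied in T cells and is also found in melanoma.

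The promoters of NFATC2 and RCAN1 are shown because these were the members with the largest differences between the groups, and because RCAN1 holds the regulated start described above. Sequences are RefSeq promoters on GRCh38.p14, from 250 bases before to 50 after a transcription start, all on the minus strand and written 5′ to 3′. Capitals mark the letters of the NFAT core, GGAAA on either strand (TTTCC on the strand shown), and of an AP-1 element, TGANTCA, which reads the same on both strands. The first is the upstream start of NFATC2 (chr20:51562790-51563089). The second is the most upstream start of RCAN1 (chr21:34615064-34615363). The last is the start of RCAN1 that lies 88.3 kb further along the gene (chr21:34526773-34527072), within an intron of 4 longer GENCODE coding transcripts and an exon of 1.
NFATC2 upstream start: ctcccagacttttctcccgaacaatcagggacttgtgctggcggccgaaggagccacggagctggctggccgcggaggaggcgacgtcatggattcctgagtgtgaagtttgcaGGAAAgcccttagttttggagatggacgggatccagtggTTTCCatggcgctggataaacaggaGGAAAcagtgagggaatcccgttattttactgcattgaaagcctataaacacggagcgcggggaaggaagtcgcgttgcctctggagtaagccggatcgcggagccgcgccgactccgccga
RCAN1 upstream start: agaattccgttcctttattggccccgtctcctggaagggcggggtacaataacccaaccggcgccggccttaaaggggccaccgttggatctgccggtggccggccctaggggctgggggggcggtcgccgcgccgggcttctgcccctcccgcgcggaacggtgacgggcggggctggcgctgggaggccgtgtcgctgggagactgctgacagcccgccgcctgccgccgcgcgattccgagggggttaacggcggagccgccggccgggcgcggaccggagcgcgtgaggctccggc
RCAN1 internal start: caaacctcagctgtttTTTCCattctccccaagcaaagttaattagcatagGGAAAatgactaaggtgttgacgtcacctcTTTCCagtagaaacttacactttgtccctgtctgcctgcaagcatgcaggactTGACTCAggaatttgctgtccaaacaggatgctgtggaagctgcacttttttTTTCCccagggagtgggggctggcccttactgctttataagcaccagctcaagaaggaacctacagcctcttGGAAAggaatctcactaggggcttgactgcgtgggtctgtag

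Of 6 RCAN1 starts, the internal start shown was picked for having the most GGAAA matches, so its high number follows from that choice. It held 5 GGAAA matches, a number reached by 0.7% of the 34943 promoters of the same length. It also held 1 TGANTCA match, which 7.72% of those promoters held. The other RCAN1 starts held 0 or 1 GGAAA match. The upstream RCAN1 start held 0 of either. The upstream NFATC2 start held 3 GGAAA matches, a number reached by 10.0% of all promoters, while the other NFATC2 start, 20.1 kb further along the gene, held 0. Promoters were found for 7 of the 10 genes (NFATC1, NFATC2, NFATC3, NFATC4, PPP3R1, RCAN1 and RCAN2), at 18 starts in all. Of those, 9 held GGAAA, against 61.2% of all promoters. A match describes letters only, and the deposited values are per gene, so they do not say which start was used.

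Total counts lay between 26692868 and 37830603 per library. ALDH1A3, the enzyme named in the title of the study, had 973 ± 253 CPM (counts scaled to a fixed library size, here after TMM normalization) in High and 389 ± 39.4 in Low (SD, n = 3). High library 1 stood apart from the other High libraries on the second principal component (49.1 against -22.0 and -32.5, 14.5% of the variance). It also had the lowest ALDH1A3 level of its group (683 CPM, against 1149 and 1088 CPM). Values without High library 1 are given for some genes only. The melanoma lineage factor SOX10 was abundant in both groups (670 and 194 CPM on average), whereas the pigment genes MLANA and TYR had 3 counts or fewer in each library. Of the 10 melanoma lineage markers, 6 could be tested. Of these, 4 were higher and 1 was lower past the threshold used below, against 10.8% and 9.83% of all genes tested. SOX10, S100A1, S100B and CSPG4 were higher, with log2 fold changes of 1.79, 4.75, 4.28 and 0.88. MITF was lower (-0.92). The 12 white blood cell markers, relevant because NFATC2 is a lymphocyte gene, summed to between 3.04 and 7.26 CPM in High and between 2.01 and 3.42 CPM in Low. CD2, MS4A1 and NKG7 were at 0 in every library, and PTPRC had at most 4 counts. CD14 was lower and LYZ higher past the threshold, and the other 10 were too low to be tested. The 8 fibroblast and endothelial markers summed to between 22.7 and 25.4 CPM in High and between 10.25 and 12.55 CPM in Low, and KDR was the 1 of them past the threshold, higher in High. The part of these markers in the differences of the NFAT and calcineurin genes was not tested. In bulk libraries, fewer cells of a type and less RNA per cell cannot be told apart.

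NFATC2 (ENSG00000101096, chromosome 20, 51386957 to 51562831 on GRCh38) had 122, 105 and 131 CPM in High libraries 1, 2 and 3, and 12.9, 8.33 and 11.8 CPM in Low libraries 1, 2 and 3. All High values were far above all Low values, and the libraries within a group lay close together. The means were 119 ± 12.9 and 11.03 ± 2.40 CPM (SD, n = 3), a ratio of 10.8. The log2 fold change from edgeR was 3.43 (SE 0.18), the value for which the gene was chosen. Leaving out 1 library at a time gave 3.27 to 3.58. By log2 fold change NFATC2 ranked 52 among the 11030 genes averaging 5 CPM or more, and 140 among all 17047 genes tested. A high rank follows from the way the gene was chosen and is not a separate result.

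Per transcript length, NFATC2 had 24.8 ± 3.24 TPM (transcripts scaled to a fixed library sum) in High and 2.21 ± 0.47 TPM in Low (SD, n = 3). This moved the gene from the ninth place of the 10 by TPM in Low to the third in High. Its share of the summed TPM of the 5 NFAT factors was 43.4%, 43.2% and 46.2% in the High libraries. In the Low libraries the share was 8.43%, 6.35% and 9.79%. NFATC3 was the most abundant NFAT factor in Low, with 57.0 ± 3.01% of the summed TPM, and held 32.7 ± 2.09% in High, behind NFATC2. The 5 factors together had 55.9 ± 5.15 TPM in High and 27.1 ± 4.02 TPM in Low. Without NFATC2 the other 4 summed to 31.1 ± 1.92 and 24.9 ± 3.84 TPM, and these sums did not overlap (exact two-sided permutation p = 0.1, the lowest value possible with 3 against 3).

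**Figure D1:**
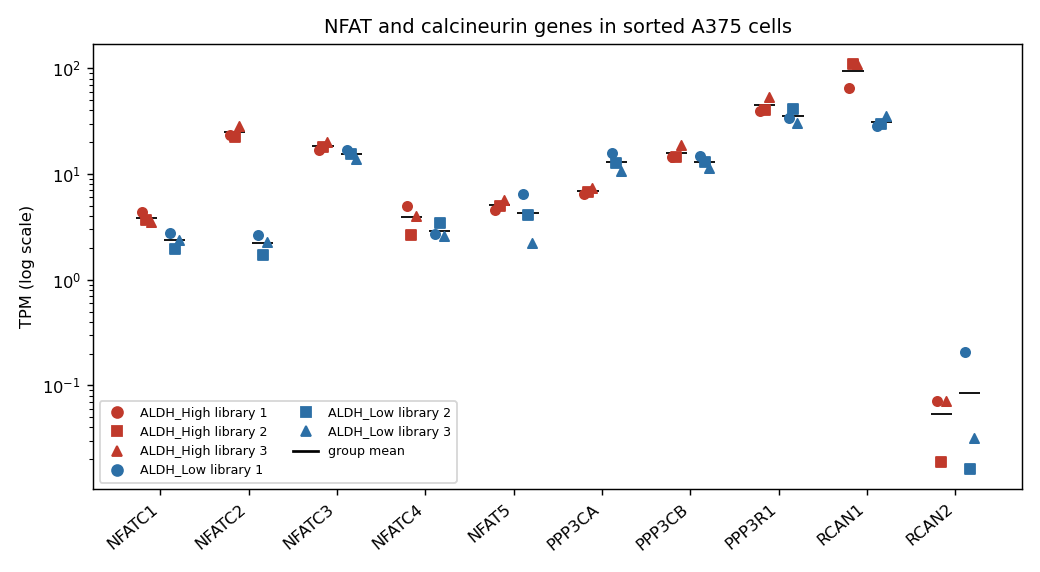
TPM of the 10 genes on a log axis in each of the 6 libraries, High in red and Low in blue, with group means as bars. NFATC2 and RCAN1 are higher in all 3 High libraries, PPP3CA is lower in all 3, and RCAN2 stays at or below 0.205 TPM.

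**Figure D2:**
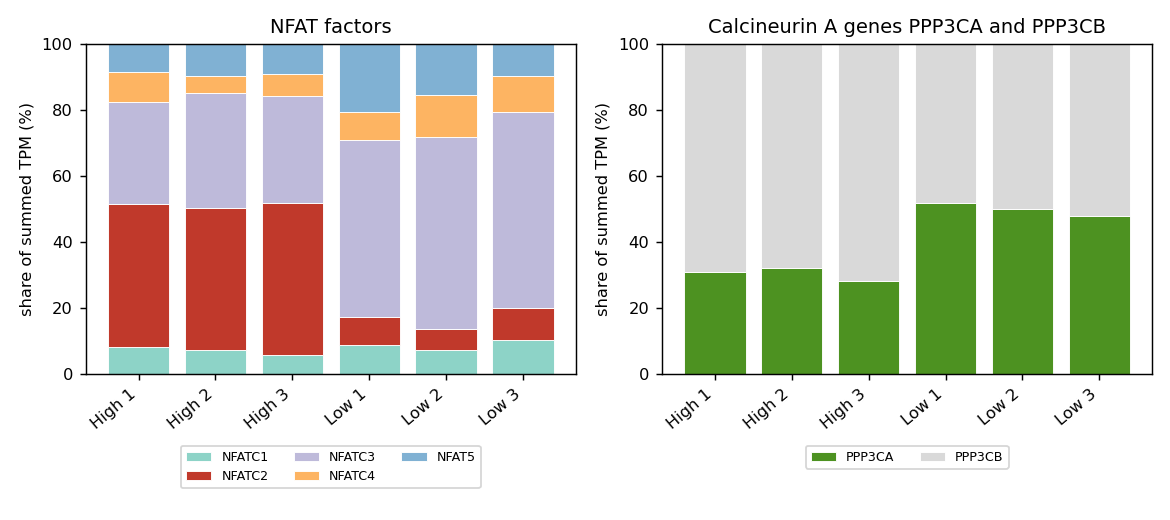
Stacked shares of the summed TPM in each library for the 5 NFAT factors and for PPP3CA and PPP3CB. NFATC2 takes 43.2% to 46.2% of the NFAT sum in High and 6.35% to 9.79% in Low, and PPP3CA takes 28.1% to 32.0% and 47.9% to 51.9% of the second sum.

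Of the other 9 genes, 8 had counts that sufficed for edgeR across 17047 genes, and 2 passed an adjusted p of 0.05: RCAN1 was higher and PPP3CA was lower in High. Over all genes tested 20.6% passed, 10.8% higher and 9.83% lower, so 2 of 8 is close to that background. In CPM the groups did not overlap for 4 of the 8 (NFATC1, NFATC3, PPP3CA and RCAN1), against 37.8% of all genes. In TPM the NFATC3 groups overlapped, since High library 1 (16.70 TPM) lay below Low library 1 (16.77 TPM).

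**Figure D3:**
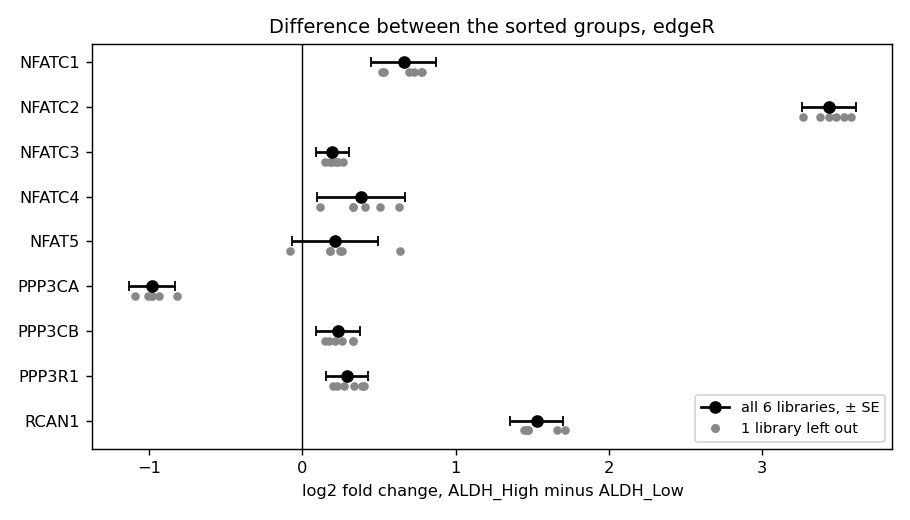
Log2 fold change between High and Low for the 9 genes with enough counts, from edgeR with standard errors (black) and from the 6 fits that each left out 1 library (grey). RCAN1 at 1.53 and PPP3CA at -0.98 lie away from 0 in every fit, NFATC1 lies at 0.66, and NFAT5 crosses 0 in 1 fit.

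RCAN1 (ENSG00000159200, chromosome 21, 34513142 to 34615113), the inhibitor of calcineurin, had 109, 164 and 160 CPM in High libraries 1, 2 and 3, and 45.1, 46.3 and 58.8 CPM in Low libraries 1, 2 and 3. The groups did not overlap, and High library 1 was the lowest of its group. The ratio of the means was 2.88, with 144 ± 30.6 and 50.1 ± 7.62 CPM (SD, n = 3). The log2 fold change of RCAN1 was 1.53 (SE 0.18, edgeR quasi-likelihood adjusted p 0.000221), and 1.71 without High library 1. RCAN1 was the most abundant of the 10 genes per length in High, at 94.6 ± 25.2 TPM. In Low it had 31.3 ± 3.62 TPM, a range that overlapped that of PPP3R1. On chromosome 21, 4 of 101 coding genes with at least 5 CPM, RCAN1 included, had a log2 fold change as high as that of RCAN1, and the median there was 0.11.

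RCAN2 (chromosome 6), a related calcineurin inhibitor, had 4, 1 and 5 counts in the High libraries and 16, 1 and 2 counts in the Low libraries. The groups overlapped, and the gene was too low to be tested. Its level stayed between 0.016 and 0.205 TPM in every library, so no difference of RCAN2 could be detected at this depth.

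PPP3CA (ENSG00000138814, chromosome 4, 101023409 to 101348278) encodes a catalytic A subunit of calcineurin. It had 16.4, 15.3 and 16.3 CPM in High libraries 1, 2 and 3, and 37.7, 30.3 and 26.5 CPM in Low libraries 1, 2 and 3. The High values were nearly equal, and each lay below every Low value. The means of 15.97 ± 0.60 and 31.5 ± 5.71 CPM made PPP3CA 1.97-fold lower in High (SD, n = 3). The log2 fold change of PPP3CA was -0.98 (SE 0.15, edgeR adjusted p 0.00133). On the opposite strand, a transcript overlapping PPP3CA had up to 194 counts in a library, and another overlapping PPP3CB had up to 124. How the counting treated strand is not given in the sources used here.

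PPP3CB (chromosome 10), another catalytic A subunit gene, had 24.2 ± 3.02 CPM in High and 20.5 ± 2.09 CPM in Low (SD, n = 3; log2 fold change of 0.23 with SE 0.14, edgeR adjusted p 0.306). The 2 groups of PPP3CB values overlapped. Their makeup differed all the same: PPP3CA was 30.9%, 32.0% and 28.1% of the summed TPM of PPP3CA and PPP3CB in the High libraries and 51.9%, 49.9% and 47.9% in the Low libraries. The sum itself was 22.8 ± 2.96 TPM in High and 26.2 ± 4.38 TPM in Low, with overlapping groups (exact two-sided permutation p = 0.3).

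PPP3R1 (chromosome 2) encodes the regulatory B subunit, which binds calcium and joins either catalytic subunit. It had 67.9, 62.5 and 80.5 CPM in the High libraries and 54.6, 65.5 and 51.9 CPM in the Low libraries. The groups overlapped through Low library 2, and the log2 fold change was 0.29 (SE 0.14, edgeR adjusted p 0.169). Per length, PPP3R1 was 6.45 ± 0.70 times as abundant as PPP3CA in High and 2.73 ± 0.54 times in Low (SD, n = 3). RCAN1 was 13.7 ± 3.21 times as abundant as PPP3CA in High and 2.49 ± 0.79 times in Low. For each of these 2 ratios the groups did not overlap (exact two-sided permutation p = 0.1, the lowest value possible with 3 against 3). Both ratios restate the lower PPP3CA level, and the second also the higher RCAN1 level, so they add no separate result.

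NFATC1 (ENSG00000131196, chromosome 18, 79395856 to 79529325), a calcineurin-dependent factor, had 10.4, 7.96 and 7.42 CPM in High libraries 1, 2 and 3, and 6.17, 4.42 and 5.68 CPM in Low libraries 1, 2 and 3. The groups did not overlap, though the nearest libraries were 7.42 and 6.17 CPM. The log2 fold change of NFATC1 was 0.66 (SE 0.21, edgeR adjusted p 0.0531), just short of the threshold. It passed in 5 of 15 alternatives, among them DESeq2 (0.67, adjusted p 0.0213) and edgeR with the replicate number as a block (0.66, adjusted p 0.0298), and over all 15 the adjusted p reached 0.168. On chromosome 18 the median of 155 coding genes was -0.22, and 31.0% of them were higher in High.

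NFATC3 (chromosome 16), also calcineurin-dependent, had 69.7, 68.4 and 73.5 CPM in the High libraries and 65.9, 61.3 and 57.5 CPM in the Low libraries. These values did not overlap but were near each other, and the log2 fold change was 0.20 (SE 0.11, edgeR adjusted p 0.243). NFATC4 (chromosome 14), the last of the calcineurin-dependent factors, had 4.73 ± 1.69 CPM in High and 3.62 ± 0.52 CPM in Low (SD, n = 3; log2 fold change of 0.38 with SE 0.28, edgeR adjusted p 0.404), with overlapping groups.

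NFAT5 (chromosome 16), the osmotic stress factor, had 29.7, 29.1 and 32.4 CPM in High libraries 1, 2 and 3, and 39.1, 25.0 and 14.3 CPM in Low libraries 1, 2 and 3. The Low libraries were spread on both sides of the High libraries. The log2 fold change of NFAT5 was 0.21 (SE 0.28, edgeR adjusted p 0.659). It was -0.079 without Low library 3 and 0.64 without Low library 1, so neither a direction nor its absence was shown. A transcript on the same strand inside the NFAT5 gene had up to 246 counts in a library, and how the counting divided reads between overlapping genes is not given in the sources used here.

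By TPM, the order in High was RCAN1, PPP3R1, NFATC2, NFATC3, PPP3CB, PPP3CA, NFAT5, NFATC4, NFATC1 and RCAN2. The ranges of NFATC3 and PPP3CB overlapped, as did those of NFAT5 and NFATC4 and of NFATC4 and NFATC1. In Low the order was PPP3R1, RCAN1, NFATC3, PPP3CA, PPP3CB, NFAT5, NFATC4, NFATC1, NFATC2 and RCAN2. There the neighbours in that order overlapped except RCAN1 with NFATC3, PPP3CB with NFAT5 and NFATC2 with RCAN2.

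The authors' deposited table gives log2 coefficients of the high and low groups, each against a group named 1A3, whose libraries were not analysed here. Both coefficients share that reference. In the authors' deposited table, NFATC2 is at 2.62 in the high group and -0.84 in the low group. RCAN1 is at 0.41 and -1.14 in the authors' deposited table, and PPP3CA at 0.028 and 0.99. NFATC1 is at 1.26 and 0.58, and NFAT5 at 1.25 and 1.01, in the authors' deposited table. Relative to that reference, NFATC2 and RCAN1 thus have coefficients of opposite sign in the high and low groups, whereas those of the other 8 genes are above 0 in both.

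NFATC2 lies on chromosome 20, whose coding genes averaging 5 CPM or more had a median log2 fold change of 0.28 between the groups, with 86.9% of 290 genes higher in High. No other of these 290 genes had a log2 fold change as high as that of NFATC2. Within 2 Mb of NFATC2 there were 16 such genes, with a median of 0.26 and values from -0.50 to 1.06, of which 3 were higher and 1 was lower past the threshold. The nearest gene, ATP9A, a lipid flippase whose start lies 206 kb away, had 42.8 ± 1.08 and 20.4 ± 5.44 CPM (SD, n = 3; log2 fold change of 1.06 with SE 0.18, edgeR adjusted p 0.00194). KCNG1, a potassium channel subunit, was higher as well (0.58, SE 0.16, edgeR adjusted p 0.0276). So was ZNF217, a zinc finger factor 2047 kb away (0.57, SE 0.16, edgeR adjusted p 0.0316). The log2 fold changes of the other close neighbours, DPM1, MOCS3 and ZFP64, were 0.21, 0.29 and 0.28 and did not pass. The part of the chromosome-wide shift in the NFATC2 difference was not tested.

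**Figure D4:**
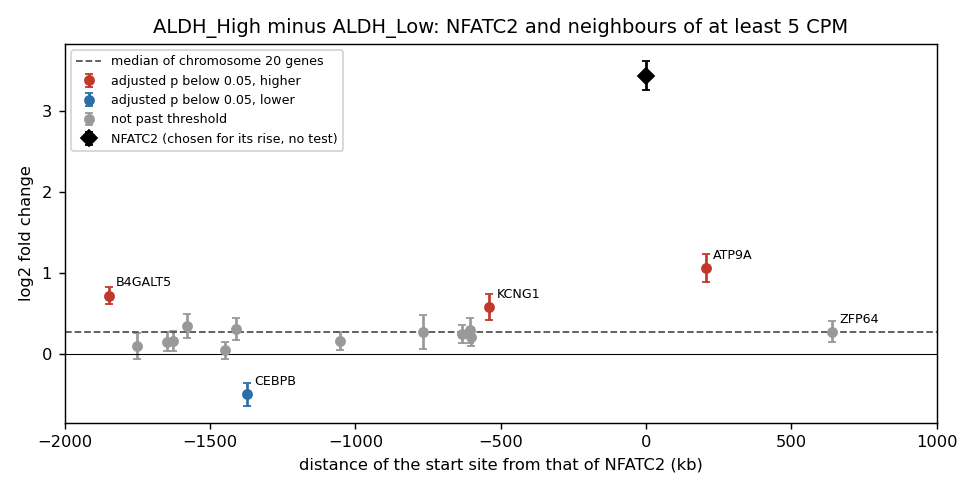
Log2 fold change with standard error against the distance in kb of each gene's start from that of NFATC2, for genes averaging 5 CPM or more within 2 Mb. NFATC2 stands at 3.43, ATP9A next at 1.06, and most others lie near the chromosome median of 0.28 (dashed).

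Over the 6 libraries, the log2 CPM values most like those of NFATC2 belonged to CUBN (Pearson r 0.9991), LMBRD1 (0.9991), TRIM9 (0.9988), CECR2 (0.9987) and PDZRN3 (0.9985). They ran most against NFATC2 in NLRP2 (-0.9988), VIPR1 (-0.9982), LPCAT4 (-0.9982), C20orf197 (-0.9977) and AC009237.14 (-0.9968). Such values rest mainly on the gap between the 2 groups, and 121 of the 14043 genes averaging 1 CPM or more had r above 0.99. The size of the difference varied among these genes: the log2 fold change was 3.49 for CECR2, 2.09 for TRIM9 and 0.72 for LMBRD1. Among the pathway members, r was 0.952 for RCAN1, 0.880 for NFATC1, 0.855 for NFATC3, 0.703 for PPP3CB and 0.675 for PPP3R1. It was 0.451 for NFATC4, 0.381 for NFAT5 and -0.933 for PPP3CA. These values too rest mainly on the gap between the groups.

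The genes upstream and downstream of calcineurin were read from 6 lists, which were chosen with earlier results of these data known. Across the 17047 genes the median log2 fold change was -0.013. Among 13 genes of calcium entry and sensing, all tested, 4 were higher and 0 were lower, against 10.8% higher and 9.83% lower over all genes tested, with a median of 0.14. The 4 were PLCG1 and PLCG2, phospholipases that make the messenger IP3, ITPR2, an IP3-gated calcium channel, and STIM2, a calcium sensor of the endoplasmic reticulum. PLCG1 had 155, 153 and 161 CPM in High and 101, 104 and 121 CPM in Low (log2 fold change of 0.52 with SE 0.11, edgeR adjusted p 0.00751). It lies on chromosome 20. The log2 fold changes of PLCG2, ITPR2 and STIM2 were 1.17, 0.70 and 0.46. ITPR2 no longer passed in limma on log2(TPM + 1) with a TPM filter (adjusted p 0.0504) or without one (adjusted p 0.0725). STIM2 no longer passed when certain single libraries were removed (High library 3 or any Low library), with adjusted p up to 0.119. The calcium channel genes ORAI1, ORAI2 and ORAI3 had log2 fold changes of 0.081, -0.094 and -0.58 and did not pass. In the fit without High library 1, 1 gene of this list was lower.

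Of 9 calcineurin scaffolds, inhibitors and binders, all tested, 2 were higher and 1 was lower (median -0.11), against 10.8% and 9.83% of all genes. RCAN3, the third member of the RCAN family, had 28.8, 17.9 and 22.6 CPM in High and 13.6, 11.2 and 9.09 CPM in Low (log2 fold change of 1.03 with SE 0.21, edgeR adjusted p 0.00570). Its groups did not overlap, as with RCAN1, and RCAN3 did not pass in limma without a TPM filter (adjusted p 0.05002). HOMER2, a scaffold protein that binds NFAT and competes with calcineurin, was higher (1.23, SE 0.19, edgeR adjusted p 0.00114). CIB1, a calcium-binding protein related to the calcineurin B subunit, was lower (-0.82, SE 0.16, edgeR adjusted p 0.00498). FKBP1A and PPIA, the binding proteins of the calcineurin-blocking drugs tacrolimus and cyclosporin, had log2 fold changes of 0.26 and -0.11 and did not pass.

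Of 11 NFAT kinases and transport genes, 10 were tested, 2 were higher and 0 were lower (median 0.10), beside 10.8% and 9.83% of all genes. HIPK2, a nuclear kinase, had 148, 167 and 172 CPM in High and 89.5, 103 and 75.3 CPM in Low. Its groups did not overlap (log2 fold change of 0.86 with SE 0.13, edgeR adjusted p 0.00130). DYRK1A, a kinase that primes NFAT for export and lies on chromosome 21 like RCAN1, had a log2 fold change of 0.53 (SE 0.15, edgeR adjusted p 0.0321). DYRK1A no longer passed in 7 of 15 alternatives, without High library 2 or 3 or Low library 2 or 3 and in the 3 limma fits, with adjusted p up to 0.162. The main export kinases GSK3A and GSK3B had 0.093 and 0.20, and the exportin XPO1 had 0.21, none past the threshold. NRON, a non-coding RNA of the NFAT complex, was at 0 counts in every library. Without High library 1, 1 gene of the list was lower.

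The AP-1 genes, partners of NFAT on DNA, had log2 fold changes below 0 in all 7 cases, with a median of -0.79, and 2 of them passed, where 9.83% of all genes were lower. FOSL2 had 44.3, 62.3 and 60.2 CPM in High and 154, 161 and 141 CPM in Low. The groups lay far apart, and FOSL2 was lower (log2 fold change of -1.45 with SE 0.14, edgeR adjusted p 9.11e-05). JUNB was lower as well (-0.79, SE 0.18, edgeR adjusted p 0.0104), but not past the threshold in limma without a TPM filter (adjusted p 0.0564). FOS, FOSB and JUN had overlapping groups and did not pass, at -0.74, -1.04 and -0.82. With the replicate number as a block 6 of the 7 were lower past the threshold. Without High library 1, which had the highest FOS, FOSB and JUN levels of its group, 5 were. Low library 1 likewise had the highest levels of these genes in the Low group.

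Of 12 genes reported elsewhere as NFAT targets, 9 were tested, 2 were higher and 2 were lower (median 0.27), against 10.8% and 9.83% of all genes. GPC6, a cell surface proteoglycan, had 51.5, 38.2 and 37.0 CPM in High and 9.44, 9.47 and 6.72 CPM in Low. This was the largest rise of the list (log2 fold change of 2.30 with SE 0.19, edgeR adjusted p 3.13e-05). It lies on chromosome 13. MDM2, the p53 ubiquitin ligase, had 0.99 (SE 0.27, edgeR adjusted p 0.0285), and no longer passed without High library 3, Low library 2 or Low library 3, nor in DESeq2 (adjusted p 0.0702) or the 3 limma fits (adjusted p up to 0.176). The cytokine genes CSF2 and IL6 were low and went the other way. CSF2 had 15, 8 and 7 counts in the High libraries and 145, 75 and 118 in the Low libraries (log2 fold change of -3.39 with SE 0.43, edgeR adjusted p 0.000418). IL6 had 4, 0 and 5 counts against 129, 26 and 57 (-4.38, SE 0.75, edgeR adjusted p 0.00241). PTGS2 and CXCL8 had log2 fold changes of -0.28 and 0.27 and did not pass, and IL2, the classic target in T cells, was at 0 counts throughout.

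Of 8 osmotic targets of NFAT5, 7 were tested, 1 was higher and 2 were lower (median -0.27), beside 10.8% and 9.83% of all genes. SLC5A3, the inositol transporter, had 87.9, 89.7 and 85.2 CPM in High and 44.6, 35.5 and 26.1 CPM in Low (log2 fold change of 1.31 with SE 0.17, edgeR adjusted p 0.000557). SLC5A3 lies on chromosome 21, like RCAN1. AKR1B1, the aldose reductase that makes sorbitol, was lower (-0.84, SE 0.12, edgeR adjusted p 0.00108), as was the water channel AQP1 (-1.71, SE 0.26, edgeR adjusted p 0.00128). Thus SLC5A3 and AKR1B1, both osmolyte genes, changed in opposite directions. The taurine transporter SLC6A6 had a log2 fold change of 0.023. Without High library 1, 4 genes of this list were lower.

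**Figure D5:**
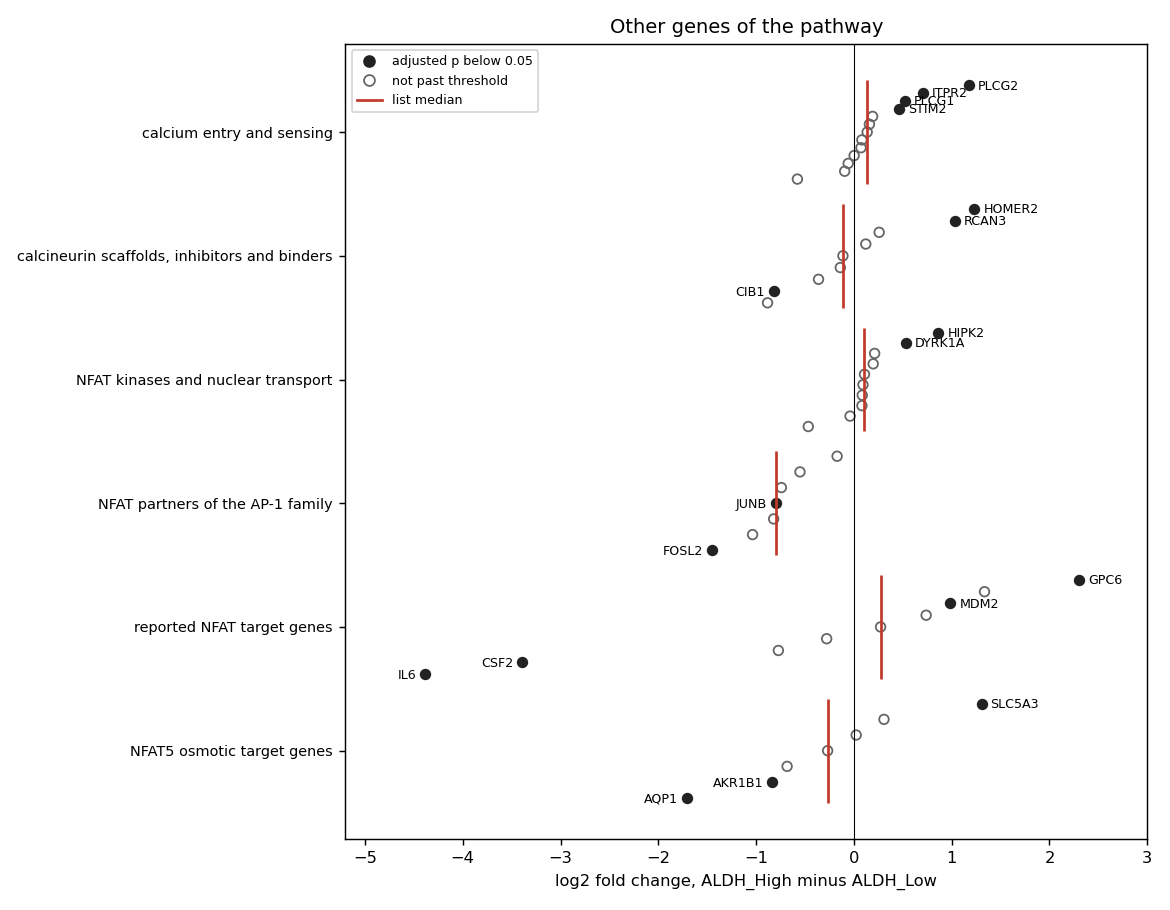
Log2 fold change between High and Low for each tested gene of the 6 lists, filled where the edgeR adjusted p was below 0.05, with the list median as a red line. All 7 AP-1 genes lie below 0, the calcium entry list has 4 filled points above 0 and 0 below, and GPC6 at 2.30 and IL6 at -4.38 mark the range.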

How the data were processed

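Members and gene lists were chosen with earlier results of these data known. The authors deposited whole-number counts per gene, treated as rounded estimated counts because between 133 and 177 genes per library had a count of 0 beside a TPM above 0. They also deposited TPM values, with gene lengths not given in the sources used here. The authors' log2 coefficients come, per the file headers, from a model of 5 groups with Wald tests (DESeq2 is named per the submitters' processing notes), and 226 rows with shifted cells, none of them a member, were left out. STAR 2.5.1b, HTSeq 0.6.1 and GRCh38 are named per the submitters' processing notes. How strand and shared reads were treated is not given in the sources used here.

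Counts were filtered with filterByExpr, scaled by TMM and tested with edgeR 4.0.16 (quasi-likelihood F-test, two-sided, group as the only term, Benjamini-Hochberg over 17047 genes, threshold 0.05). Each SE was taken as |log2 fold change| over the root of the F statistic. Named genes were the 10 members, up to 6 genes past the threshold per list, 5 genes at each end of Pearson r with NFATC2 (log2 of CPM plus 0.5), and the 3 nearest genes on each side of NFATC2 with at least 5 CPM. Others were named after their values were seen. Positions come from GENCODE 44. The edgeR step was tested on simulated counts with the same spread for all genes. There it recovered 8.96% of 1.5-fold, 52.2% of 2-fold and 100% of 4-fold changes. A gene that did not pass is thus not shown to be unchanged. Alternatives were other scalings, filters, DESeq2 1.42.0, limma 3.58.1 on log2(TPM + 1) and log2(TPM + 0.1), the replicate number as a block, and each library left out. Within-group library pairs differed by more than sampling noise (chi-square per degree of freedom 13.5 to 56.1), so none was counted as a repeat. Counting limits cover counting error only. The values of 1 gene of the calcium list are not reported here.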

Additional observations from a re-analysis of the deposited data

How the results depend on the processing

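RCAN1, from 1.45 to 1.71, and PPP3CA, from -1.09 to -0.82, kept their direction and passed in all 15 alternatives, and NFATC3, NFATC4, PPP3CB and PPP3R1 passed in 0 of 15. RCAN2 was not tested and is not compared. NFATC1 passed without a low-count filter (0.67), in DESeq2 (0.67), in limma on log2(TPM + 1) (0.53) and log2(TPM + 0.1) (0.69) with a TPM filter, and under the replicate block (0.66), which made 2 members higher in each of these 5 fits in place of 1. NFATC1 ranged from 0.52 to 0.78 when a library was left out, and NFAT5 from -0.079 (without ALDH_Low library 3) to 0.64. NFATC2 was 3.01 on log2(TPM + 1), with or without a TPM filter; a pseudocount shrinks differences of low values by construction. Its share of the NFAT factors was 51.0% and 10.3% by CPM, which does not correct for length, in ALDH_High and ALDH_Low, against 44.3% and 8.19% by TPM.

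Of all genes, 3513 passed, 1838 higher and 1675 lower. There were 2170 (1216 higher, 954 lower) in limma on log2(TPM + 0.1), 1930 (1060, 870) at an adjusted p below 0.01 and 1958 (1004, 954) past a log2 fold change of 1 in size. The lower genes were 1038 on log2(TPM + 1), and from 1073 (without ALDH_High library 2) to 2049 when a library was left out. Libraries with the same replicate number deviated together with correlations of 0.15, 0.076 and 0.11, and every library correlated best with its own number, a hint from the data and not from the design; the block called 6 AP-1 genes lower in place of 2.

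In the lists, the higher kinases and transport genes were 1 in the 3 limma fits and 1 to 2 when a library was left out, with 0 to 1 lower. Lower scaffolds and binders were 2 under upper-quartile factors, in DESeq2 and in limma without a filter, 3 with at least 10 counts in every library, and 1 to 2 when a library was left out; the higher ones were 1 in limma without a filter. Lower AP-1 genes were 6 without a low-count filter, 1 in limma without a filter and 2 to 5 when a library was left out. Higher reported targets were 4 without a low-count filter, 1 in DESeq2 and the 3 limma fits, and 1 to 3 when a library was left out; 0 were lower with at least 10 counts in every library, which removes CSF2 and IL6. Higher calcium genes were 3 in both limma fits on log2(TPM + 1) and 3 to 4 when a library was left out, lower ones ran from 0 to 1, and lower NFAT5 targets from 2 to 4 when a library was left out. Where no cause is given, the cause was not tested.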
